A study of Macaca mulatta with 11 samples.

Results

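Rhesus macaque cumulus cells, the somatic cells packed around the oocyte, were profiled for the genes that hold cells to one another and to matrix: integrins, cadherins, claudins, tetraspanins and related adhesion receptors. These genes were taken by the start of their symbol (for example ITGA, ITGB, CDH, PCDH, CLDN, TSPAN, NECTIN or CADM). The rule itself uses no measured value, but it was chosen with earlier results of these data known. The rule found 133 genes among the 14132 that carried a symbol on the array. All 3 groups came from animals stimulated with follicle-stimulating hormone (FSH). FSH was the only hormone given before the 4 pre-maturation samples (PM), taken from immature cumulus-oocyte complexes. For the 3 IVM samples, culture followed FSH and the complexes matured in vitro. For the 4 VVM samples, FSH was followed by human chorionic gonadotropin (hCG), and maturation took place in vivo. The labels give neither age, strain nor animal for any sample, and no time of collection or number of pooled complexes. The series design names the comparison of IVM with VVM as a search for cumulus markers of oocyte quality, with PM as the state before maturation. Values are log2 intensities on an Affymetrix Rhesus Macaque array, 1 array per sample. Group values are means ± SD over 4 PM, 3 IVM and 4 VVM samples, and differences are on the log2 scale ± SE. A gene was called when its limma p-value, adjusted over all probe sets by the Benjamini-Hochberg method, was under 0.05.

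Integrins are paired alpha and beta subunits that bind matrix proteins such as laminin, collagen and vitronectin, or receptors on other cells, and link them to the actin cytoskeleton. Cadherins join cells through calcium-dependent contacts and are anchored by catenins, while desmosomal cadherins are anchored by desmoplakin to intermediate filaments. Claudins and occludin form tight junctions on scaffolds of the zonula occludens proteins. Nectins, CADM proteins, VCAM1, ICAMs and NCAM1 are adhesion receptors of the immunoglobulin superfamily. Tetraspanins are membrane proteins with a 4-pass fold that gather integrins and other receptors into clusters. In the cumulus-oocyte complex such contacts hold the compact cumulus together before the ovulatory signal, and the cells separate within a secreted matrix when the cumulus expands.

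The array medians lay between 5.34 and 5.53, and 48 of the 133 genes had a mean log2 value below the lowest of them. No detection call was used here, so values below the array medians may hold little signal, and folds against them are uncertain in size. Levels of different probe sets were not compared. Of 14 listed cumulus and granulosa genes 11 were measured, and their mean log2 level ranged from 10.50 to 10.77 in PM, from 9.81 to 10.49 in IVM and from 9.13 to 9.85 in VVM. Against PM, 1 was called higher and 5 lower in IVM (25% and 20.9% of all genes). In VVM 1 was called higher and 8 lower than in PM (18.0% and 21.8% of all genes). Between IVM and VVM, 5 were higher in IVM and none was lower (9.06% and 7.63% of all genes). KITLG, a ligand that granulosa cells send to the oocyte, was below the array medians in every group mean (4.53 in PM, 5.04 in IVM and 5.04 in VVM). The array PM 1 had a mean of 6.89 over 9 measured oocyte genes, against 4.50 to 4.54 in the other PM arrays. The arrays VVM 2 and VVM 3 had means of 7.34 and 7.82 over 12 measured leukocyte genes, against 5.84 and 5.72 in VVM 1 and VVM 4, 5.45 to 5.60 in PM and 5.55 to 5.65 in IVM. The pan-leukocyte marker PTPRC was at 3.70 in PM and 4.02 in IVM, below the array medians, and at 5.43 in VVM. Over 7 measured theca and stroma genes the array means were 5.41 to 5.67 in PM, 6.13 to 6.65 in IVM and 5.83 to 6.22 in VVM. Over 10 measured surface epithelium genes, CDH1 among them, they were 6.04 to 6.43 in PM, 6.69 to 6.97 in IVM and 6.46 to 6.96 in VVM. For both lists every IVM and VVM array lay above every PM array. The bacterial hybridization controls, added to every array, averaged 10.05 ± 0.21 in PM, 11.91 ± 0.40 in IVM and 11.03 ± 0.43 in VVM, so this technical signal differed with the groups.

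Between IVM and VVM, VCAM1, TM4SF1, F11R and ITGA6 were lower in IVM, by log2 differences of 4.21, 2.60, 2.57 and 1.63 in size, and ITGAE was higher by 1.74 ± 0.17. Of the 133 adhesion genes 19 were called, 9 higher and 10 lower in IVM. That is 14.3% of them, and 16.7% of all 14132 genes were called in this comparison, 9.06% higher and 7.63% lower. At a difference of at least 2-fold 9 were called (3 higher, 6 lower), when 7.98% of all genes were. The median difference was 0.04 over the adhesion genes and 0.08 over all genes. The share called was thus close to the background, and the result lies in single genes. With cyclic loess between arrays the share of these calls that were higher in IVM went from 47.4% to 35.3%. The counts also depended on single arrays. The calls higher in IVM numbered 4 without IVM 1, 3 without IVM 2, 3 without VVM 1, 5 without VVM 3 and 4 without VVM 4. The calls lower in IVM numbered 3 without IVM 2. Without PM 1, VVM 2 and VVM 3 together, 8 of the 19 calls were kept: VCAM1, ITGAE, ITGA3, ITGB1, DSC2, CDH13, ITGA11 and PCDHA5. In that fit 9.86% of all genes were called.

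Against PM, TM4SF1, CLDN1, F11R, ITGA7 and TSPAN18 were higher and PCDH18, TSPAN17, TSPAN7, ITGB3BP and DSP were lower, with values in both IVM and VVM below. In IVM 60 adhesion genes were called, 40 higher and 20 lower than in PM. This is 45.1% of them, beside 45.9% of all genes (25% higher, 20.9% lower). In VVM 48 were called, 32 higher and 16 lower. This is 36.1%, beside 39.8% of all genes (18.0% higher, 21.8% lower). At 2-fold or more 21 genes were called in IVM and 19 in VVM, beside 17.9% and 17.0% of all genes. The median difference of the adhesion genes was 0.23 in IVM and 0.20 in VVM, against 0.12 and 0.04 over all genes. Both shares were again close to the background. The split by direction depended on scaling. Calls that were higher made up 66.7% in each comparison. With each array centred on its median this became 56.6% in IVM and 48.8% in VVM, where 20 in place of 32 genes were called higher. With cyclic loess it became 57.1% and 60.5%. Centring moved the median difference over all genes from 0.12 to -0.03 in IVM and from 0.04 to -0.07 in VVM, and cyclic loess moved it to 0.01 in IVM and -0.01 in VVM. Without PM 1, the genes called higher in VVM numbered 21. Without PM 1, VVM 2 and VVM 3 together, 45 of the 60 and 24 of the 48 calls were kept. In that fit 34.7% and 21.4% of all genes were called. The changes in IVM and in VVM are both measured against the same 4 PM arrays. Of the theca and stroma genes 5 of 7 rose and none fell in IVM against PM, while 2 rose and 1 fell in VVM. Of the surface epithelium genes 5 of 10 were called higher in IVM and 3 in VVM, and none was lower. The part of these cell types in the changes from PM was not tested. Many genes have several probe sets, and their mean often moved less than the brightest one. It changed by 0.87 in IVM and 0.40 in VVM for ITGA7, by 2.05 and 4.27 for TM4SF1, and by 2.37 in VVM for F11R, all still called.

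**Figure D1:**
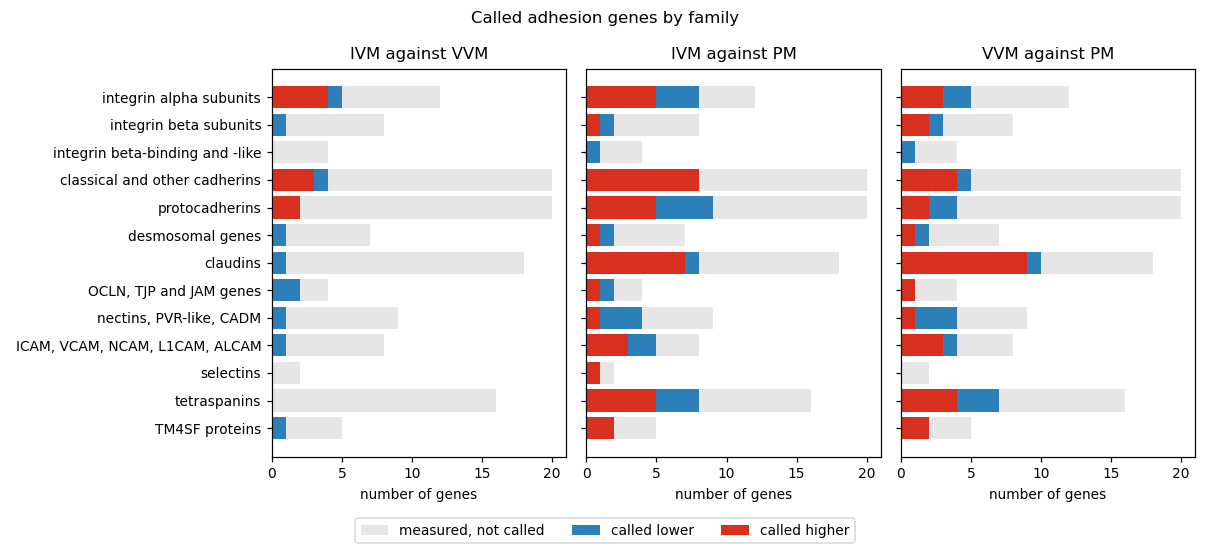
Number of adhesion genes called higher (red), called lower (blue) or measured without a call (grey), by family, in each of the 3 comparisons. The horizontal axis is the number of genes. None of the 16 tetraspanins with a TSPAN symbol was called between IVM and VVM, whereas 8 were called between IVM and PM and 7 between VVM and PM.

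**Figure D2:**
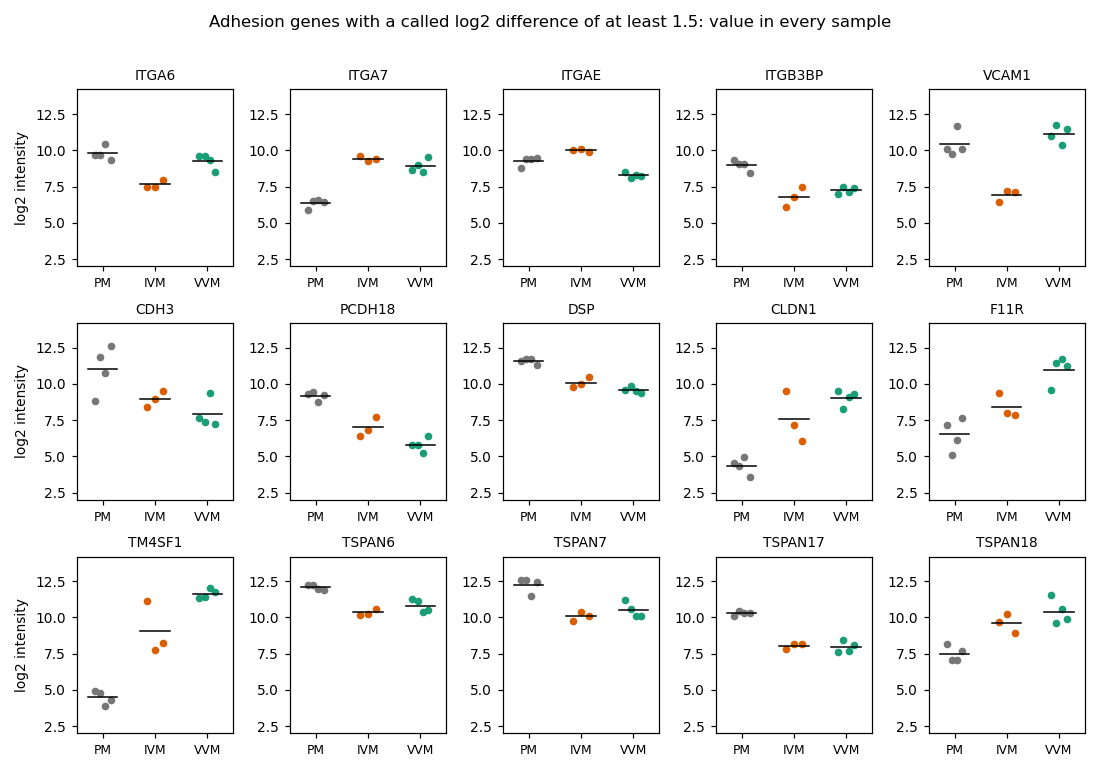
Log2 intensity in every sample for the 15 adhesion genes with a called log2 difference of at least 1.5 in any comparison. Each point is 1 array and each line a group mean. VCAM1 and ITGA6 were low in the IVM arrays, TM4SF1 and CLDN1 were low in the PM arrays, and PCDH18 and DSP were high in the PM arrays.

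Among the 12 integrin alpha subunits measured, 5 were called between IVM and VVM (41.7%, beside 16.7% of all genes), 8 between IVM and PM (66.7%, beside 45.9%) and 5 between VVM and PM (41.7%, beside 39.8%). ITGA6, the alpha subunit of laminin receptors, was at 9.68, 9.71, 10.43 and 9.34 in the PM samples, 7.48, 7.48 and 7.97 in IVM and 9.62, 9.60, 9.37 and 8.52 in VVM. Every IVM sample was below every sample of the other groups. IVM lay below VVM by a log2 difference of -1.63 ± 0.30 (adjusted p = 0.00585, 3.10-fold) and lower than PM by -2.14 ± 0.30 (adjusted p = 0.000344), whereas VVM and PM were not called apart. Of its 4 probe sets 2 were called lower in IVM than in PM and 1 was called higher. Without PM 1, VVM 2 and VVM 3 together the difference from VVM was -1.42 with an adjusted p of 0.0729.

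ITGA7, another laminin-binding alpha subunit, best known in muscle, was at 5.90, 6.50, 6.60 and 6.43 in PM, 9.58, 9.26 and 9.38 in IVM and 8.67, 8.97, 8.51 and 9.52 in VVM. The matured samples of both kinds lay above all PM samples, while IVM and VVM overlapped. The rise was 3.05 ± 0.24 in IVM (8.29-fold, adjusted p = 1.26e-05) and 2.56 ± 0.22 in VVM (5.91-fold, adjusted p = 2e-05). Of its 3 probe sets 2 were called higher and 1 lower in each of these comparisons.

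ITGAE, the alpha E subunit that pairs with beta 7 and is known for binding E-cadherin, was at 8.80, 9.39, 9.40 and 9.48 in PM, 10.04, 10.12 and 9.90 in IVM and 8.48, 8.09, 8.32 and 8.22 in VVM. The 3 groups did not overlap, and IVM stood above PM and VVM below it. IVM exceeded VVM by 1.74 ± 0.17 (3.34-fold, adjusted p = 0.000231). Against PM the difference was 0.75 ± 0.17 in IVM (adjusted p = 0.00522) and -0.99 ± 0.16 in VVM (adjusted p = 0.000774). The difference between IVM and VVM kept its call under every alternative run. ITGAE had 1 probe set. Its partner ITGB7 was at 5.82 ± 0.22 in PM, 6.13 ± 0.13 in IVM and 6.35 ± 0.16 in VVM. ITGB7 was called higher in VVM than in PM (0.53 ± 0.13, adjusted p = 0.0103), opposite to ITGAE. It was not called between IVM and VVM or between IVM and PM.

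The other called alpha subunits differed by less. ITGA3, a laminin receptor subunit, was at 7.52 ± 0.14 in IVM and 6.72 ± 0.35 in VVM, a difference of 0.80 ± 0.17 (adjusted p = 0.0134) that was not called without IVM 2 (0.74, adjusted p = 0.0578). ITGA8, which pairs with beta 1 to bind nephronectin, was at 5.66 ± 0.13 in PM, 6.74 ± 0.04 in IVM and 6.31 ± 0.12 in VVM. It rose against PM by 1.09 ± 0.11 in IVM and by 0.65 ± 0.10 in VVM. ITGA11, a collagen receptor subunit, was higher in IVM than in VVM by 0.53 ± 0.13 (adjusted p = 0.0238) and than in PM by 0.57 ± 0.13. Over VVM, ITGA8 was higher in IVM by 0.44 ± 0.11 (adjusted p = 0.0261). That call was lost on omission of IVM 1, IVM 2, IVM 3, VVM 1 or VVM 4 (adjusted p up to 0.0671), and that of ITGA11 without IVM 1, IVM 2, VVM 1 or VVM 4 (up to 0.0812). With the mean of the probe sets neither was called, at -0.15 for ITGA8 and 0.31 for ITGA11. ITGAV, the alpha subunit of vitronectin receptors, fell in IVM against PM by 0.63, from 8.40 ± 0.44 to 7.78 ± 0.19, with overlapping samples and an adjusted p of 0.0398. It was not called without PM 1, PM 2, PM 3, IVM 1, IVM 2 or VVM 4 (adjusted p up to 0.116).

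Of the 8 integrin beta subunits, ITGB1, the common partner of most laminin and collagen receptor alpha subunits, was called between IVM and VVM. It was at 10.31 ± 0.45 in PM, 9.69 ± 0.16 in IVM and 10.85 ± 0.40 in VVM. The IVM mean was below that of VVM by -1.16 ± 0.26 (2.23-fold, adjusted p = 0.0151), with no overlap, and the call was lost on omission of IVM 2 (-1.09, adjusted p = 0.0631). The only probe set of ITGB1 can match several transcripts, so the run without such probe sets could not test it. ITGB5, the beta subunit of a vitronectin receptor, was at 13.03 ± 0.27 in PM, 12.20 ± 0.39 in IVM and 12.43 ± 0.24 in VVM. Its difference from PM was -0.83 ± 0.21 in IVM (adjusted p = 0.00887) and -0.60 ± 0.19 in VVM (adjusted p = 0.0353). The VVM call was lost on omission of PM 1, PM 3, PM 4, VVM 1, VVM 3 or VVM 4 (adjusted p up to 0.0948). ITGB3, the other main partner of ITGAV, rose in IVM by 0.72 ± 0.17 (adjusted p = 0.00689). ITGB2, the beta subunit of leukocyte integrins, was at 6.72 ± 0.06 in PM, 6.96 ± 0.28 in IVM and 7.28 ± 0.29 in VVM. It was higher in VVM than in PM by 0.55 ± 0.16 (adjusted p = 0.0211). The call was lost after centring and on omission of PM 1, VVM 1, VVM 2 or VVM 3, and without PM 1, VVM 2 and VVM 3 together the difference was 0.37 with an adjusted p of 0.305. In bulk RNA such as this, fewer cells of a type and less RNA per cell cannot be told apart. Of the 12 leukocyte genes 7 were called higher and 1 lower in VVM than in PM, beside 18.0% and 21.8% of all genes. ITGB4, the beta partner of ITGA6 in epithelia, was not called in any comparison, at 6.13 ± 0.22, 6.44 ± 0.30 and 5.96 ± 0.16 in PM, IVM and VVM.

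The rule also took in genes named for binding integrin beta subunits. ITGB3BP, known as a centromere protein as well as a binder of the beta 3 tail, was at 9.30, 9.05, 9.03 and 8.47 in PM, 6.10, 6.80 and 7.47 in IVM and 6.97, 7.45, 7.16 and 7.39 in VVM. All matured samples lay below all PM samples. The difference was -2.17 ± 0.29 in IVM (4.51-fold, adjusted p = 0.000242) and -1.72 ± 0.27 in VVM (3.29-fold, adjusted p = 0.000674). ITGB1BP1, which binds the beta 1 tail, was not called, at 10.94 ± 0.31, 10.73 ± 0.43 and 10.69 ± 0.33 in PM, IVM and VVM.

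Of the 8 genes of the ICAM, VCAM, NCAM, L1CAM and ALCAM group, VCAM1, a counter-receptor of integrins on other cells, had the widest difference between IVM and VVM of all 133 genes. It was at 10.08, 9.77, 11.69 and 10.11 in PM, 6.46, 7.21 and 7.15 in IVM and 10.97, 11.75, 10.39 and 11.50 in VVM. Every IVM sample was more than 2 log2 units below every other sample. The difference was -4.21 ± 0.44 from VVM (18.6-fold, adjusted p = 0.000391) and -3.47 ± 0.44 from PM (11.1-fold, adjusted p = 0.000194). VVM and PM were not called apart. With the hybridization controls as a covariate, VCAM1 and ITGAE were the 2 adhesion genes still called between IVM and VVM. None was called between IVM and PM. This covariate, which differed with the groups, left 2.28% of all genes called between IVM and VVM and 0.0142% between IVM and PM.

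NCAM1, a neural and epithelial adhesion molecule, was at 9.68 ± 0.25 in PM, 8.21 ± 0.49 in IVM and 8.65 ± 0.27 in VVM. It fell by 1.47 in IVM (SE 0.23, adjusted p = 0.000685) and by 1.03 in VVM (SE 0.21, adjusted p = 0.00402). Its 10 probe sets disagreed, with 2 called lower and 2 called higher in IVM than in PM, and the mean over them differed by 0.12 in IVM and 0.06 in VVM, neither called. ICAM1, which leukocyte integrins bind, was below the array medians at 4.45 ± 0.12 in PM, 5.00 ± 0.13 in IVM and 4.93 ± 0.16 in VVM. It rose against PM by 0.56 ± 0.12 in IVM and 0.49 ± 0.11 in VVM. The IVM call was lost with cyclic loess (0.31, adjusted p = 0.0625). The VVM call was lost with leukocyte genes as a covariate (adjusted p = 0.236) and without PM 1, VVM 2 and VVM 3 together (adjusted p = 0.195). ICAM4 rose against PM by 0.89 ± 0.14 in IVM (adjusted p = 0.000737) and by 0.42 ± 0.13 in VVM (adjusted p = 0.0295). The VVM call was lost after centring and on omission of PM 1, PM 2, PM 4, VVM 2, VVM 3 or VVM 4 (adjusted p up to 0.0848). L1CAM was called at 0.48 ± 0.15 in IVM and 0.46 ± 0.14 in VVM. Its calls were lost on omission of PM 1, PM 2, IVM 1 or IVM 2 in IVM and without PM 1, PM 2, VVM 1, VVM 3 or VVM 4 in VVM (adjusted p up to 0.0927 and 0.0727), and both were lost after centring. ALCAM was not called. Its difference between IVM and VVM was -1.31 ± 0.62 (adjusted p = 0.208), which became -1.89 with an adjusted p of 0.0349 without VVM 4.

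Among 20 cadherins, CDH3, or P-cadherin, a classical cadherin of epithelia, was at 8.83, 11.85, 10.78 and 12.59 in PM, 8.42, 8.94 and 9.49 in IVM and 7.67, 7.36, 9.38 and 7.23 in VVM. PM 1 was the lowest of the PM samples and overlapped with both matured groups. The difference from PM was -3.10 ± 0.72 in VVM (8.57-fold, adjusted p = 0.00751) and -2.06 ± 0.78 in IVM (adjusted p = 0.0534). Without PM 1 the IVM difference was -2.79 with an adjusted p of 0.00607, and without VVM 3 its adjusted p was 0.0405. PM 1 is the array with the high oocyte gene mean, whose part in this value was not tested.

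CDH13, or T-cadherin, which is anchored by a lipid and has no cytoplasmic tail, was at 4.89 ± 0.16 in PM, 5.46 ± 0.05 in IVM and 6.06 ± 0.19 in VVM. The groups did not overlap. VVM exceeded PM by 1.17 ± 0.12 (2.25-fold, adjusted p = 5.55e-05), and IVM was between them, above PM by 0.58 ± 0.13 and below VVM by a difference of -0.59 ± 0.13 (adjusted p = 0.014). The last call was lost on omission of IVM 2 (-0.57, adjusted p = 0.0509). With cyclic loess CDH13 was not called higher in IVM than in PM (0.32, adjusted p = 0.111). Its PM mean lay below the array medians. CDH17, CDH4 and CDH23 were called higher in IVM than in VVM, by 0.68 ± 0.18, 0.43 ± 0.12 and 0.36 ± 0.10. These small differences were lost in 5, 8 and 10 of the 11 fits that left out 1 array (adjusted p up to 0.106, 0.145 and 0.109). CDH17 lost its call without IVM 1, IVM 3, VVM 1, VVM 3 or VVM 4, CDH4 kept it only without PM 2, PM 4 or IVM 3, and CDH23 only without IVM 1, and not with the mean of its probe sets. CDH23, known from the tip links of hair cells, rose against PM by 0.76 ± 0.10 in IVM and by 0.40 ± 0.09 in VVM. Over the family, 8 cadherins rose and none fell in IVM against PM, with differences from 0.47 to 0.83, and 4 were higher and CDH3 lower in VVM than in PM. The 8 are 40% of the family, beside 45.9% of all genes called, 25% higher. The 5 called in VVM are 25%, beside 39.8% of all genes.

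CDH1, or E-cadherin, the epithelial cadherin and ligand of the alpha E integrin, was below the array medians at 5.02 ± 0.17, 5.02 ± 0.18 and 4.89 ± 0.09 in PM, IVM and VVM. It was not called. CDH11, a mesenchymal cadherin, overlapped widely between groups. Its IVM samples lay between 4.77 and 7.43 and its VVM samples between 4.90 and 9.35, and its difference between IVM and VVM was -1.61 ± 1.09 (adjusted p = 0.375). CDH18 was likewise not called, at -0.98 ± 0.49 between IVM and PM (adjusted p = 0.13). Without PM 4 this was -1.46 with an adjusted p of 0.0113.

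Of 20 protocadherins, which are cadherin relatives without catenin-binding tails, PCDH18 changed most. It was at 9.28, 9.45, 8.76 and 9.24 in PM, 6.43, 6.85 and 7.70 in IVM and 5.78, 5.76, 5.22 and 6.41 in VVM. The groups did not overlap, with PM highest and VVM lowest. The difference from PM was -3.39 ± 0.29 in VVM (10.5-fold, adjusted p = 2.15e-05) and -2.19 ± 0.32 in IVM (4.56-fold, adjusted p = 0.000429). IVM exceeded VVM by 1.20 ± 0.32 (adjusted p = 0.0324), a call that was lost on omission of IVM 2, IVM 3, VVM 1, VVM 2 or VVM 3 (adjusted p up to 0.09) and with the mean of its probe sets (0.82, adjusted p = 0.0626).

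PCDHA5, a clustered protocadherin of the alpha family, was at 10.005 ± 0.35 in PM, 11.44 ± 0.69 in IVM and 9.99 ± 0.40 in VVM. IVM exceeded VVM by 1.45 ± 0.32 (2.73-fold, adjusted p = 0.0136) and PM by 1.43 ± 0.32 (adjusted p = 0.00484). The difference from VVM was not called without IVM 1 (1.24, adjusted p = 0.053), and the mean of its 6 probe sets differed by 0.26. The genes of the alpha cluster share their last exons, so that their probe sets may not be separated by gene. PCDHB11, of the beta cluster, fell in IVM against PM by 1.5 (SE 0.39, adjusted p = 0.0118), from 5.33 ± 0.49 to 3.84 ± 0.52. It was not called without IVM 1 (-1.20, adjusted p = 0.0561). Its PM and IVM means lay below the array medians. PCDHB5 was not called, with a difference of -0.93 ± 0.41 between VVM and PM (adjusted p = 0.107). Without PM 3 this was -1.24 with an adjusted p of 0.0383.

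Desmosomal genes numbered 7. DSP, or desmoplakin, the protein that ties desmosomes to intermediate filaments, was at 11.58, 11.74, 11.69 and 11.31 in PM, 9.76, 10 and 10.45 in IVM and 9.59, 9.89, 9.50 and 9.39 in VVM. All matured samples lay below all PM samples, and IVM overlapped with VVM. The difference was -1.51 ± 0.18 in IVM (2.85-fold, adjusted p = 0.000129) and -1.99 ± 0.17 in VVM (3.98-fold, adjusted p = 1.91e-05). DSC2, a desmosomal cadherin, was at 4.97 ± 0.23 in PM, 4.87 ± 0.20 in IVM and 6.05 ± 0.17 in VVM. VVM exceeded PM by 1.08 ± 0.14 (adjusted p = 0.000264), and IVM was lower than VVM by -1.18 ± 0.16 (adjusted p = 0.00112). PM and IVM lay below the array medians, and 1 of its 3 probe sets was called in the opposite direction between IVM and VVM. DSG3 was dim throughout and was called at 0.53 ± 0.17 in IVM over PM, a call lost on omission of PM 1, PM 4 or IVM 2 (adjusted p up to 0.123) and after centring.

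Of 18 claudins, 7 rose and 1 fell for IVM against PM, and 9 rose and 1 fell for VVM against PM. That is 44.4% called in IVM, beside 45.9% of all genes (25% higher, 20.9% lower), and 55.6% in VVM, beside 39.8% (18.0% higher, 21.8% lower). CLDN1, which builds the barrier of tight junctions in epithelia, was at 4.57, 4.32, 4.96 and 3.56 in PM, 9.49, 7.16 and 6.07 in IVM and 9.51, 8.28, 9.09 and 9.29 in VVM. All PM values were below the array medians and all matured values above them, and the 3 IVM samples were spread over more than 3 log2 units. The difference from PM was 4.69 ± 0.60 in VVM (25.9-fold, adjusted p = 0.000207) and 3.23 ± 0.65 in IVM (9.35-fold, adjusted p = 0.0029). IVM and VVM differed by -1.47 ± 0.65, which was not called (adjusted p = 0.176). Without IVM 1 that difference was -2.43 with an adjusted p of 0.00859.

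CLDN3, another barrier claudin, was at 8.54 ± 0.51 in PM, 8.67 ± 0.37 in IVM and 9.61 ± 0.46 in VVM. It was higher in VVM than in PM by 1.06 ± 0.28 (adjusted p = 0.0153), although PM 4 lay above the lowest VVM samples. Without PM 1, VVM 2 and VVM 3 together its adjusted p was 0.0968. Its difference between IVM and VVM, -0.94 ± 0.31, was not called (adjusted p = 0.0731) but was without PM 4 (adjusted p = 0.0388). CLDN15, a claudin that forms cation channels, was lower than in PM by -0.82 ± 0.20 in IVM and -0.64 ± 0.19 in VVM. Its 2 probe sets were called in opposite directions, so that their mean differed by 0.01 in IVM and -0.06 in VVM. Its VVM call was lost on omission of PM 2, PM 4, VVM 1 or VVM 2 (adjusted p up to 0.0649). CLDND1, a claudin-like protein, was lower in IVM than in VVM by -0.80 ± 0.21 (adjusted p = 0.0331). This call was lost on omission of IVM 1, IVM 2, VVM 1, VVM 2 or VVM 4 (adjusted p up to 0.106).

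F11R, the junctional adhesion molecule JAM-A, was at 7.19, 5.09, 6.12 and 7.65 in PM, 9.34, 8.01 and 7.88 in IVM and 9.58, 11.41, 11.69 and 11.25 in VVM. The groups did not overlap, with PM lowest and VVM highest. VVM exceeded PM by 4.47 ± 0.60 (22.2-fold, adjusted p = 0.000269), and all 4 probe sets were called in this direction. IVM exceeded PM by 1.90 ± 0.65 (adjusted p = 0.0358) and was below VVM by -2.57 ± 0.65 (5.94-fold, adjusted p = 0.0261). The first of these calls was lost on omission of PM 2, PM 3, IVM 1 or IVM 2 (adjusted p up to 0.144) and after centring (1.76, adjusted p = 0.0608), and the mean of the probe sets, of which 1 was called, differed by 0.73 (adjusted p = 0.132). The second was not called when IVM 2, IVM 3, VVM 2, VVM 3 or VVM 4 was left out (adjusted p up to 0.102).

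TJP1, or ZO-1, the scaffold that links claudins and occludin to actin, was at 10.72 ± 0.13 in PM, 9.24 ± 0.42 in IVM and 10.22 ± 0.35 in VVM. IVM was lower than PM by -1.48 ± 0.22 (2.79-fold, adjusted p = 0.00044) and lower than VVM by -0.98 ± 0.22 (adjusted p = 0.0145). Both of its probe sets were called lower in IVM in each of these comparisons. The difference from VVM was not called without IVM 2 (-0.74, adjusted p = 0.0578). OCLN, or occludin, was at 3.0 ± 0.24, 2.91 ± 0.20 and 2.96 ± 0.22 in PM, IVM and VVM, below the array medians on every array, and was not called.

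Of 9 nectin, PVR-like and CADM genes, NECTIN1, NECTIN2 and NECTIN3 were the 3 called lower than in PM in each matured group. CADM3 was called higher than in PM, by 0.49 ± 0.15 in IVM (adjusted p = 0.0215) and 0.46 ± 0.14 in VVM (adjusted p = 0.0257). Neither CADM3 call held in every fit that left out 1 array. The family had 44.4% called in each matured group against PM, beside 45.9% of all genes in IVM and 39.8% in VVM. Nectins start cell contacts and recruit afadin. NECTIN1 was at 7.90 ± 0.29 in PM, 6.83 ± 0.16 in IVM and 6.59 ± 0.19 in VVM, a difference of -1.07 ± 0.17 (adjusted p = 0.000708) and -1.30 ± 0.16 (adjusted p = 0.000134). NECTIN3 was at 8.45 ± 0.28, 7.29 ± 0.56 and 7.14 ± 0.36, a difference of -1.16 ± 0.27 in IVM and -1.31 ± 0.25 in VVM. NECTIN2 was at 10.12 ± 0.30, 9.46 ± 0.30 and 9.16 ± 0.33. Its difference from PM was -0.96 ± 0.20 in VVM (adjusted p = 0.00427) and -0.66 ± 0.22 in IVM (adjusted p = 0.0306). The latter was lost on omission of PM 2, PM 3 or IVM 1 (adjusted p up to 0.127) and with cyclic loess (-0.46, adjusted p = 0.148). One of its probe sets was called higher in IVM, and with the mean of its 2 probe sets neither call remained. CADM1, a homophilic adhesion receptor, was lower in IVM than in VVM by -0.69 ± 0.19 (adjusted p = 0.043). That call was kept without VVM 2 or without VVM 4 but not without any other single array (adjusted p up to 0.107). The only probe set of CADM1 can match several transcripts, so the run without such probe sets could not test it.

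None of the 16 tetraspanins with a TSPAN symbol was called between IVM and VVM, where their differences ranged from -0.78 to 0.32. Against PM 8 were called in IVM and 7 in VVM. These are 50% and 43.8% of the family, beside 45.9% and 39.8% of all genes, and 16.7% of all genes were called between IVM and VVM. CD9 and UPK1B, tetraspanins under other names, were called between IVM and VVM and are given with the partner lists. TSPAN17, of the tetraspanin subgroup that binds the protease ADAM10, was at 10.10, 10.44, 10.31 and 10.29 in PM, 7.85, 8.14 and 8.14 in IVM and 7.61, 8.48, 7.67 and 8.07 in VVM. All matured samples lay below all PM samples by more than 1.5 log2 units, and IVM lay within the range of VVM. The difference was -2.24 ± 0.20 in IVM (4.73-fold, adjusted p = 2.17e-05) and -2.33 ± 0.18 in VVM (5.03-fold, adjusted p = 1.28e-05). Its second probe set was called in the opposite direction in IVM.

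TSPAN7, a tetraspanin of brain and endocrine cells, was at 12.55, 12.56, 11.50 and 12.48 in PM, 9.74, 10.38 and 10.09 in IVM and 11.22, 10.56, 10.09 and 10.10 in VVM. Even the lowest PM sample, PM 3, lay above all matured samples. It fell by 2.20 in IVM (SE 0.32, 4.60-fold, adjusted p = 0.000435) and by 1.78 in VVM (SE 0.30, 3.44-fold, adjusted p = 0.00108). TSPAN6 was at 12.22, 12.21, 12.00 and 11.90 in PM, 10.16, 10.26 and 10.61 in IVM and 11.27, 11.14, 10.37 and 10.51 in VVM. Here too the PM samples stood above all others. It fell by 1.74 in IVM (SE 0.22, adjusted p = 0.000179) and by 1.26 in VVM (SE 0.20, adjusted p = 0.000893).

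TSPAN18, known in endothelial cells, went the other way. It was at 8.15, 7.05, 7.07 and 7.67 in PM, 9.69, 10.22 and 8.94 in IVM and 11.52, 9.62, 10.57 and 9.88 in VVM. All matured samples lay above all PM samples. The rise was 2.13 ± 0.45 in IVM (4.37-fold, adjusted p = 0.00392) and 2.91 ± 0.42 in VVM (7.52-fold, adjusted p = 0.00043). TSPAN31 rose by 1.12 ± 0.20 in IVM and 1.26 ± 0.18 in VVM, and TSPAN10 by 0.74 ± 0.12 and 0.74 ± 0.11. TSPAN8 was not called, at 4.84 ± 0.53, 4.85 ± 0.19 and 5.19 ± 0.22 in PM, IVM and VVM.

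TM4SF1, a 4-pass membrane protein of another family, known from endothelial and tumour cells, had the widest change from PM of all 133 genes. It was at 4.92, 4.80, 3.93 and 4.32 in PM, 11.11, 7.76 and 8.23 in IVM and 11.32, 11.43, 12.02 and 11.76 in VVM. The groups did not overlap, the PM samples were all below the array medians, and 1 IVM sample came close to the VVM samples. The difference from PM was 7.14 ± 0.58 in VVM (141-fold, adjusted p = 1.6e-05) and 4.54 ± 0.63 in IVM (23.3-fold, adjusted p = 0.000314). IVM was below VVM by -2.60 ± 0.63 (6.05-fold, adjusted p = 0.0221). That call was lost on omission of IVM 2, IVM 3 or VVM 3 (adjusted p up to 0.0966), while without IVM 1 the difference was -3.63. Of 11 measured endothelial genes, the adhesion gene CLDN5 among them, 4 were called higher and 1 lower in VVM than in PM. In IVM 3 were higher and 1 lower than in PM. Over all genes 18.0% were called higher and 21.8% lower in VVM, and 25% and 20.9% in IVM. The mean log2 level of the endothelial genes was 5.69 to 6.24 in the VVM arrays, 5.79 to 5.93 in IVM and 5.64 to 5.90 in PM. Their part in the TM4SF1 value was not tested. TM4SF5 was called at 0.49 ± 0.11 in IVM and 0.43 ± 0.10 in VVM over PM, near the array medians. The IVM call was lost with cyclic loess (0.26, adjusted p = 0.0592). The VVM call was lost without PM 1, VVM 2 and VVM 3 together (0.34, adjusted p = 0.166).

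Selectins bind carbohydrates on leukocytes and endothelium, and both measured members had group means below the array medians. SELE was at 3.57 ± 0.13, 3.47 ± 0.06 and 3.29 ± 0.22 in PM, IVM and VVM and was not called. SELP was called at 0.41 ± 0.14 in IVM over PM (adjusted p = 0.0339), a call lost on leaving out any 1 of the PM arrays or IVM 1 (adjusted p up to 0.129) and after centring.

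**Figure D3:**
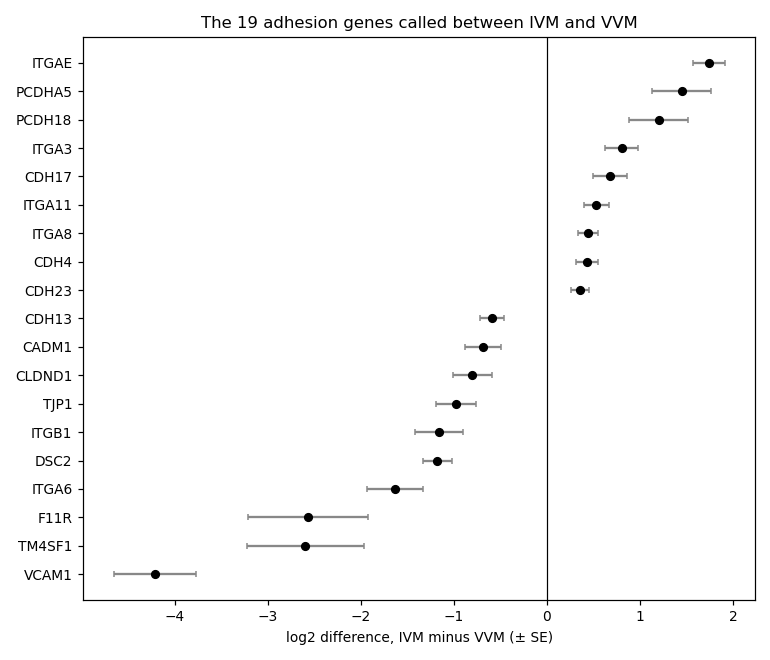
Log2 difference between IVM and VVM with its SE for the 19 adhesion genes called in this comparison, ordered by size. Points left of 0 were lower in IVM. VCAM1 lies furthest to the left at -4.21 and ITGAE furthest to the right at 1.74.

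Of the 19 calls between IVM and VVM, those of VCAM1, ITGAE, ITGA6 and DSC2 held in every fit that left out 1 of the 11 arrays. For the changes from PM, 45 of 60 calls in IVM and 32 of 48 in VVM held in every such fit. These included ITGA7, CLDN1, TM4SF1, PCDH18, DSP, ITGB3BP, TSPAN6, TSPAN7, TSPAN17, TSPAN18, TSPAN31, NECTIN1 and NECTIN3 in both. All 19 genes called between IVM and VVM, 59 of the 60 between IVM and PM and 42 of the 48 between VVM and PM had groups that did not overlap. The share over all called genes was not computed, so these counts show nothing particular to the adhesion genes. No comparison called 62 of the 133 genes.

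**Figure D4:**
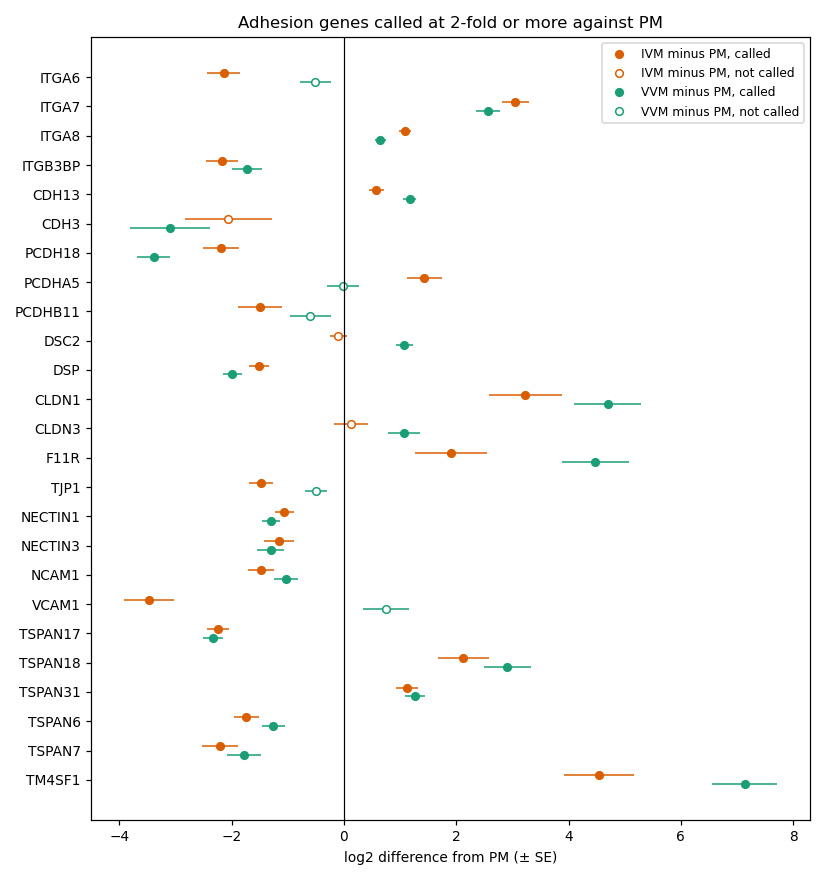
Log2 difference from PM, with its SE, in IVM (orange) and VVM (green) for the 25 adhesion genes called at 2-fold or more in either comparison, ordered by family. Filled points were called and open points were not. VCAM1, ITGA6 and TJP1 were called lower in IVM and not called in VVM, and DSC2 and CLDN3 were called higher in VVM and not called in IVM.

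The intracellular and extracellular partners of these receptors were read from 6 lists. The counts below stand beside the shares of all genes called, which were 9.06% higher and 7.63% lower for IVM against VVM, 25% and 20.9% for IVM against PM, and 18.0% and 21.8% for VVM against PM. Of 31 measured integrin adaptor and focal adhesion genes, 2 rose and 8 fell when IVM was set against VVM, 8 rose and 10 fell for IVM against PM, and 6 rose and 8 fell for VVM against PM. Their median differences were 0.03, -0.10 and -0.04. SDC4, a heparan sulfate receptor that works with integrins, was at 11.43 ± 0.55 in PM, 8.41 ± 0.63 in IVM and 8.87 ± 0.35 in VVM. It fell by 3.02 in IVM (SE 0.34, adjusted p = 8.42e-05) and by 2.56 in VVM (SE 0.31, adjusted p = 0.000154). SRC, the kinase downstream of integrins, fell by 2.52 in IVM and 1.71 in VVM from 8.76 ± 0.32 in PM, but 2 of its 4 probe sets were called in the opposite direction each time, and their mean differed by -0.32 in IVM and by -0.13, not called, in VVM. CAV1, the caveolae protein, rose by 3.47 ± 0.58 in VVM and by 2.20 ± 0.63 in IVM from 4.64 ± 0.55 in PM. Its PM mean lay below the array medians. The IVM call was lost on omission of IVM 1 or IVM 2 (adjusted p up to 0.0615). TES, a focal adhesion protein, rose by 2.38 ± 0.52 in IVM and by 2.13 ± 0.49 in VVM.

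Among 12 measured catenin and desmosome plaque genes no gene rose and 2 fell when IVM was set against VVM, and 2 rose and 3 fell against PM in each matured group. Their median differences were 0.05, 0.00 and 0.02. CTNND1, or p120 catenin, which keeps cadherins at the membrane, was at 10.47 ± 0.24 in PM, 8.58 ± 0.33 in IVM and 10.02 ± 0.29 in VVM. IVM was lower than PM by -1.89 ± 0.20 (adjusted p = 6.3e-05) and than VVM by -1.44 ± 0.20 (adjusted p = 0.00151). Without probe sets that can match several transcripts, the latter was -0.73 and not called (adjusted p = 0.108). CTNNA2, the neural alpha catenin, was lower than in PM by -2.83 ± 0.51 in IVM and -1.46 ± 0.47 in VVM, the latter lost on omission of PM 1, PM 4, VVM 2 or VVM 3 (adjusted p up to 0.102). PKP4, a p120 relative, was lower by -1.51 ± 0.24 in IVM and -1.05 ± 0.23 in VVM. AFDN, or afadin, the actin linker that nectins recruit, was at 10.67 ± 0.16 in PM, 10.82 ± 0.11 in IVM and 12.16 ± 0.50 in VVM. It was higher in VVM than in IVM, with a difference of -1.34 ± 0.23 (adjusted p = 0.00386), and higher than in PM by 1.49 ± 0.21 (adjusted p = 0.000354). With the mean of its probe sets the difference from IVM was -0.40 and not called (adjusted p = 0.0634), and that from PM was 0.64.

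Of 18 measured tight junction scaffold and polarity genes, in comparisons that called 16.7%, 45.9% and 39.8% of all genes, 1 rose and 5 fell when IVM was set against VVM, 2 rose and 6 fell for IVM against PM, and 3 rose and 5 fell for VVM against PM. Their median differences were 0.08, -0.03 and -0.07. MPDZ, a scaffold with many PDZ domains, was at 9.69 ± 0.10 in PM, 7.65 ± 0.24 in IVM and 9.25 ± 0.18 in VVM. The IVM mean was below that of VVM by -1.60 ± 0.14 (3.04-fold, adjusted p = 0.000139) and than PM by -2.04 ± 0.14 (adjusted p = 7.82e-06). AMOTL1, an angiomotin relative at cell junctions, was lower in IVM than in VVM by -2.09 ± 0.40 and than in PM by -1.93 ± 0.40. AMOTL2 was lower in IVM than in PM by -1.74 ± 0.20 and than in VVM by -0.89 ± 0.20, and lower in VVM than in PM by -0.85 ± 0.18. The difference of AMOTL2 from VVM was not called without IVM 1 (-0.79, adjusted p = 0.0534). CGNL1, or paracingulin, was lower in IVM than in VVM by -1.51 ± 0.33 and higher in VVM than in PM by 1.71 ± 0.31.

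Of 14 measured tetraspanins under other names and their partners, 1 rose and 1 fell when IVM was set against VVM, 5 rose and 4 fell for IVM against PM, and 4 rose and 3 fell for VVM against PM. Their median differences were -0.19, 0.23 and 0.24. UPK1B, a tetraspanin of urothelium, was at 9.69 ± 0.50 in PM, 8.27 ± 0.39 in IVM and 6.06 ± 0.29 in VVM. It fell by 3.63 in VVM (SE 0.25, 12.4-fold, adjusted p = 7.58e-06) and by 1.41 in IVM (SE 0.27, adjusted p = 0.00227), and IVM exceeded VVM by 2.22 ± 0.27 (adjusted p = 0.000774). Of its 4 probe sets 3 were called lower and 1 higher in IVM than in PM. CD9 was at 9.89 ± 0.27 in PM, 7.25 ± 1.37 in IVM and 9.37 ± 0.34 in VVM. The IVM mean was below that of PM by -2.64 ± 0.48 (adjusted p = 0.00162) and than VVM by -2.12 ± 0.48 (adjusted p = 0.0159), the latter lost on omission of IVM 1 or IVM 2 (adjusted p up to 0.0586). CD151, the tetraspanin that binds laminin-binding integrins, rose by 1.64 ± 0.16 in IVM and 1.19 ± 0.15 in VVM. PTGFRN, an immunoglobulin protein bound to CD9, was lower than in PM by -1.57 ± 0.35 in IVM and -1.09 ± 0.32 in VVM, the latter lost on omission of PM 2 or PM 4 (adjusted p up to 0.0687).

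Of 28 other adhesion receptors measured, 1 rose and 3 fell when IVM was set against VVM, 8 rose and 4 fell for IVM against PM, and 8 rose and 3 fell for VVM against PM. Their median differences were 0.06, 0.15 and 0.10. CNTN4, a contactin, was at 6.93 ± 0.14 in PM, 3.85 ± 0.31 in IVM and 5.70 ± 0.42 in VVM. IVM was lower than PM by -3.08 ± 0.22 (adjusted p = 8.53e-06) and than VVM by -1.85 ± 0.22 (adjusted p = 0.000634). The IVM mean of CNTN4 lay below the array medians. FAT4, a giant cadherin, was higher in VVM than in PM by 2.27 ± 0.30 and lower in IVM than in VVM by -1.91 ± 0.32. FAT1, its relative, was lower in IVM than in PM by -1.58 ± 0.35, although its 2 probe sets were called in opposite directions and their mean differed by 0.09. LSAMP, a membrane-anchored neural receptor, rose by 1.19 ± 0.25 in IVM and 0.90 ± 0.23 in VVM.

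Of 19 measured integrin ligands, 2 rose and 2 fell when IVM was set against VVM, 4 rose and 6 fell for IVM against PM, and 6 rose and 5 fell for VVM against PM. Their median differences were -0.06, -0.06 and 0.06. NPNT, or nephronectin, the ligand of the receptor that holds ITGA8, was at 4.28 ± 0.23 in PM, 4.63 ± 0.40 in IVM and 7.09 ± 0.91 in VVM. VVM exceeded PM by 2.81 ± 0.37 (7.03-fold, adjusted p = 0.000251), and IVM was below VVM by -2.47 ± 0.40 (adjusted p = 0.00329). The PM and IVM means of NPNT lay below the array medians, so the size of both differences is uncertain. LAMB1, a laminin chain, rose by 3.04 ± 0.31 in IVM (adjusted p = 5.02e-05) and by 1.90 ± 0.29 in VVM (adjusted p = 0.0006) from 5.02 ± 0.34 in PM. Its PM mean lay below the array medians. IVM exceeded VVM in LAMB1 by 1.14 ± 0.31 (adjusted p = 0.0376), which was lost on omission of PM 1, IVM 1, IVM 2, VVM 1 or VVM 2 (adjusted p up to 0.15). CCN2, a matricellular integrin ligand, was at 11.38 ± 0.84 in PM, 8.17 ± 0.88 in IVM and 9.58 ± 0.76 in VVM. It fell by 3.21 in IVM (SE 0.54, adjusted p = 0.000991) and by 1.80 in VVM (SE 0.50, adjusted p = 0.0178). The VVM call was lost with the mean of its 3 probe sets (-0.39, adjusted p = 0.0994), with leukocyte genes as a covariate (adjusted p = 0.0513) and without PM 1, VVM 2 and VVM 3 together (adjusted p = 0.0662). CCN1, of the same family, fell by 2.46 in IVM (SE 0.68, adjusted p = 0.0148), a call lost on omission of IVM 3 (adjusted p = 0.0524). Its difference between IVM and VVM was -1.97 (adjusted p = 0.0891), and -2.58 with an adjusted p of 0.0171 without VVM 1.

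**Figure D5:**
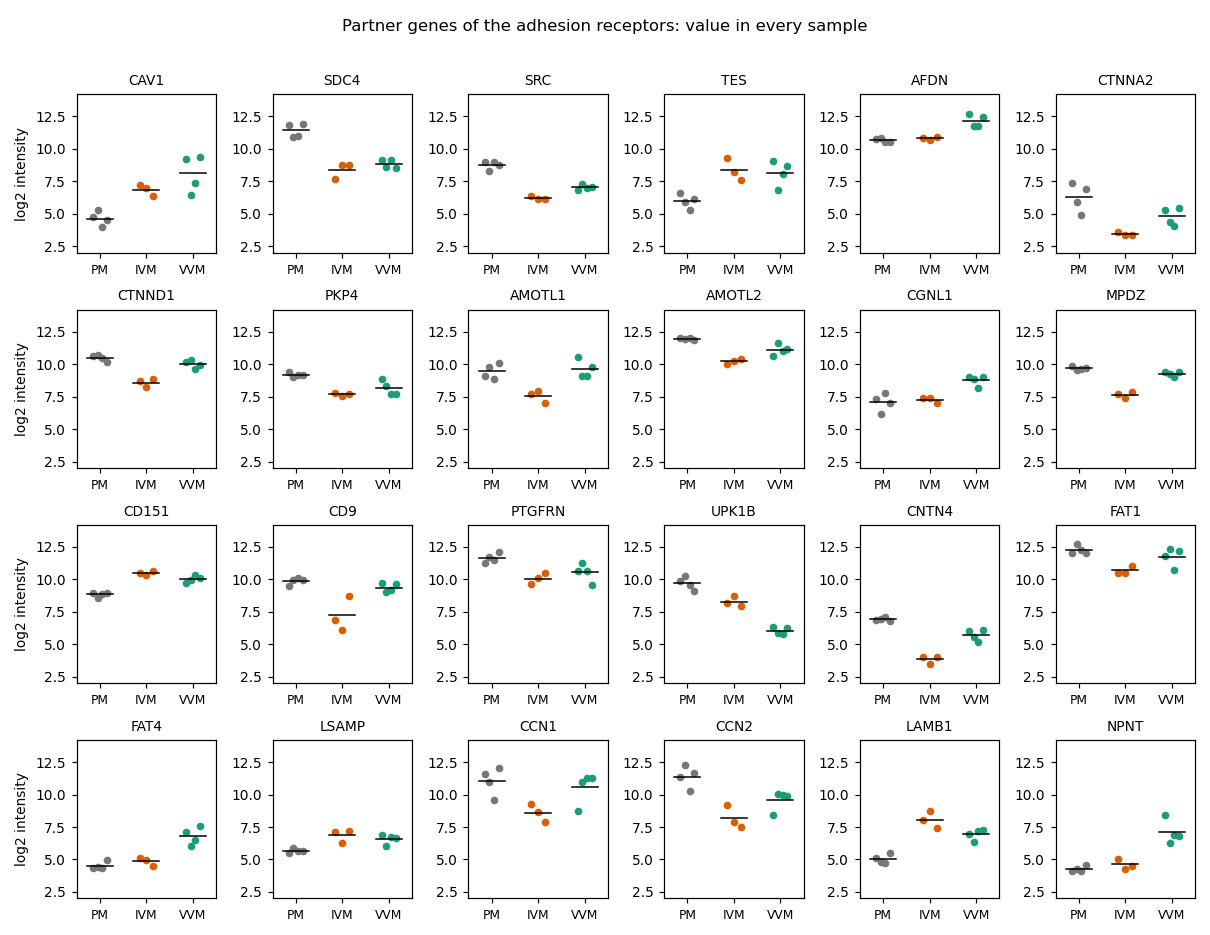
Log2 intensity in every sample for 24 partner genes, 4 from each of the 6 lists. Each point is 1 array and each line a group mean. CTNND1, MPDZ and CNTN4 were lower in all IVM arrays than in all PM and VVM arrays, and NPNT and FAT4 were higher in all VVM arrays than in all others.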

How the data were processed

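RNA of 11 cumulus cell samples was measured on 11 arrays (4 PM, 3 IVM, 4 VVM). Per the labels, 50 ng of total RNA was amplified linearly in repeated rounds and labelled with biotin. The deposited values are intensity on a linear scale, made by the authors with RMA in Affymetrix Expression Console, per the submitters' processing notes, which give no version. RMA equalizes probe intensity distributions between arrays, so shifts shared by most genes are hidden. Here log2 was taken with no pseudocount, and 99 control probe sets of 52865 were left out. Symbols came from the platform annotation, and 24629 of its 25330 rows matched RefSeq by gene identifier. Of the tested probe sets 24956 carried 1 symbol and 361 several, which were not used, and the rest were unnamed here. A gene is represented by its probe set with the highest mean. The 133 adhesion genes had 255 probe sets, 66 of them more than 1. Adhesion genes without a named probe set, such as CDH2, ITGA5 and CLDN11, are not analysed here.

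limma 3.58.1 (R 4.3.3) fitted 1 model of 3 group means to 52766 probe sets, with 8 residual and 3.30 prior degrees of freedom, two-sided tests and Benjamini-Hochberg adjustment in each comparison. The method was tested on simulated data with independent normal noise. Of differences of 1 log2 unit, 54% were recovered for IVM against VVM, 61% for IVM against PM and 67% for VVM against PM. At 2 log2 units these shares were 88%, 90% and 90%. A gene that was not called may thus still differ. Genes were named by rule: the 10 largest called rises and falls per comparison, up to 2 genes per family, a set of follicle genes and up to 4 per partner list. Values in every sample are given for genes with a called difference of at least 1.5. The genes and lists were chosen with earlier results of these data known. No label says that samples came from separate animals, so p-values may measure technical spread, and the number of arrays limits precision. Alternatives changed scaling, probe set filters, threshold, prior, array weights, covariates and arrays.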

Additional observations from a re-analysis of the deposited data

Results flagged for a closer look

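Of 166 groups of 4 samples checked for 83 named genes, 16 held a sample far from the other 3 by Dixon's ratio, and chance gives about 1 in 20 such groups. In PM, ITGAE in PM 1 was at 8.80 where the others lay from 9.39 to 9.48, and CDH23 in PM 1 was at 9.91 (others 9.99 to 9.9986). TSPAN7 in PM 3 was at 11.50 (others 12.48 to 12.56), CLDND1 in PM 4 at 10.26 (others 10.65 to 10.68), CD151 in PM 2 at 8.56 (others 8.91 to 8.97) and FAT4 in PM 4 at 4.97 (others 4.35 to 4.42). In VVM 1, CCN1 was at 8.73 (others 10.996 to 11.26), CCN2 at 8.45 (others 9.87 to 10.05) and ITGB1BP2 at 5.24 (others 4.87 to 4.90). In VVM 2, ITGAV was at 8.28 (others 7.84 to 7.90) and DSG3 at 4.48 (others 4.06 to 4.12). In VVM 3, CGNL1 was at 8.20 (others 8.89 to 9.01). In VVM 4, ITGB2 was at 6.84 (others 7.39 to 7.48), PCDHB11 at 5.82 (others 4.27 to 4.45), TM4SF5 at 5.84 (others 6.05 to 6.09) and ICAM1 at 4.69 (others 4.98 to 5.04).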

How the results depend on the processing

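Of 141 called differences of named genes, 133 were kept after centring, 124 after cyclic loess and 24 with the hybridization controls as a covariate. The named genes include partner genes and were chosen in part for large differences. Over all adhesion calls, centring kept 18 of 19 between IVM and VVM, 50 of 60 between IVM and PM and 36 of 48 between VVM and PM. Cyclic loess kept 16, 44 and 36 of them. With 9 and 10 adhesion genes called higher and lower between IVM and VVM, 40 and 20 between IVM and PM and 32 and 16 between VVM and PM, a 2-fold minimum left 3 and 6, 8 and 13, and 9 and 10. The hybridization controls as a covariate left 1 and 1, 0 and 0, and 5 and 6, by limma with adjusted p under 0.05. With this covariate 2.28%, 0.0142% and 10.5% of all genes were called. The level of these controls differed between the groups. Between IVM and VVM, the calls higher numbered 5 with the mean of all probe sets, 5 with array weights and 3 with only the groups compared. Leukocyte genes as a covariate left 4 and 3 between IVM and VVM and 12 and 10 between VVM and PM. The share of all genes called fell as well, from 16.7% to 8.6% and from 39.8% to 17.4%. Leaving out PM 1, VVM 2 and VVM 3 together left 4 and 4 between IVM and VVM and 13 higher between VVM and PM, and centring left 20 higher between VVM and PM. The omission left 9.86% of all genes called between IVM and VVM and 21.4% between VVM and PM. Leaving out 1 array gave 3 to 8 higher and 3 to 10 lower between IVM and VVM, 32 to 47 and 15 to 22 between IVM and PM, and 21 to 34 and 14 to 17 between VVM and PM. The replicate block, by the numbers of the titles, left 4 and 6 between IVM and VVM, though residuals of same-numbered samples correlated from -0.107 to 0.101, so the numbers were not taken as pairs. With the mean of all probe sets ITGA8 turned to -0.15 between IVM and VVM, and against PM CLDN15 turned to 0.0058, FAT1 to 0.0867 and NCAM1 to 0.12 in IVM, and NCAM1 to 0.0563 in VVM. Between VVM and PM the uncalled CDH11 turned to -1.26 with the hybridization controls and ALCAM to -0.0644 with the leukocyte genes as covariate. Apart from the disagreeing probe sets named, the causes were not tested.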
